A study of Polypedilum vanderplanki with 72 samples.

Results

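Among the 17156 genes of the deposited table, 42 met a rule for genes with at least 2-fold less transcript in cells without HSF1 after heat shock and a smaller difference, in either direction, in trehalose. The rule used group means in CPM, the count of a gene scaled to the total count of its library, with 0.5 added. A member had at least 5 CPM in wild-type cells (WT) after heat shock and was at most 0.5 of the WT level in HSF1 knockout cells (KO) there. Its KO level in trehalose lay between 0.67 and 1.5 of the WT level, and its WT level after heat shock was less than 4 times that in trehalose. The label "needing HSF1 only after heat" thus names a pattern of levels in the KO and WT libraries, and it leaves room for a loss in trehalose short of the limit of 0.67, and most of what follows describes these 42 genes in lines and treatments that the rule did not use.

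Pv11 cells are a cultured line from Polypedilum vanderplanki, the sleeping chironomid, an African midge with larvae that tolerate desiccation. The lines express a single HSF1 form on the HSF1 KO background: the P. vanderplanki isoforms V1, V2, V3, V4 and V5-6, or HSF1a (Dma) or HSF1b (Dmb) of Drosophila. These lines, KO and WT were measured after 6 h of heat shock (HS6h) and after 48 h in 600 mM trehalose (T48), and WT and the 5 P. vanderplanki lines also 24 h after rehydration from 11 days of desiccation (R24). Each of the 24 groups has 3 libraries of polyA RNA. The labels call the modified lines clonal and give 1 group per form, so the effect of a form and that of its clone cannot be told apart. They state neither the temperature of the heat shock nor whether trehalose was present during it. No untreated cells are among the groups, so "heat" below means HS6h set against T48.

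HSF1 is the transcription factor of the heat shock response. In stressed cells it forms trimers, binds heat shock elements in promoters and switches on genes for chaperones, which keep other proteins folded. HSF1 also acts on genes outside that response, and splice isoforms of a transcription factor can differ in the genes they act on.

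The deposited rows carry gene model numbers, and none of the 17156 IDs matched the reference table of 17863 loci, so the files do not pair these IDs with names. Members are therefore given by ID and grouped by their levels, with no role or sequence. HSF1 could not be found among the IDs, and the KO label was not checked on its own transcript. At R24 no KO was measured.

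The ratios that chose the members are given here as a description, with no test. KO over WT at HS6h ran from 0.102 to 0.499 with a median of 0.455, and 29 of the 42 lay between 0.4 and 0.5. KO over WT at T48 ran from 0.675 to 1.45 with a median of 0.839. Over the 6245 genes of 5 CPM or more in WT at HS6h the medians were 1.10 at HS6h and 0.973 at T48. Most members thus sat close to the limit of a 2-fold loss, and only 4 were below 0.25 at HS6h.

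The genes nearest to each limit show how sharp it is. At the limit on KO over WT at HS6h, g539 at 0.499 was inside and g10497 at 0.502 outside. At the lower limit at T48, g5018 at 0.675 was inside and g17209 at 0.664 outside, and at the upper limit g5311 at 1.45 was inside and g10585 at 2.22 outside. At the limit on heat, g5012 at 3.85 was inside and g14583 at 4.55 outside, and at the limit on level g11693 had 5.14 CPM and g10200 had 4.58 CPM. The rule left out 75 genes that were lower in KO at T48 too and 1 that was higher in KO there. Membership depended on library scaling: library totals adjusted by TMM, a method that equates most genes between libraries, gave 73 members, of which 34 were among the 42. On TMM-adjusted totals the WT ratio of HS6h to T48 reached 5.15 among the 42, and KO over WT at T48 reached 1.51. Both values lie beyond the limits of the rule. Members beyond the limit on heat there included g7775, g5649 and g16171, which are described below. Scaling to the sum of all transcript rows left 3 members, all among the 42. Those sums were 18.5 to 26.1 times the gene counts, and the limit of 5 CPM was kept, so it stood for more reads there. Leaving out 1 of the 12 KO and WT libraries gave from 36 to 52 members, of which 34 to 42 were among the 42.

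**Figure D1:**
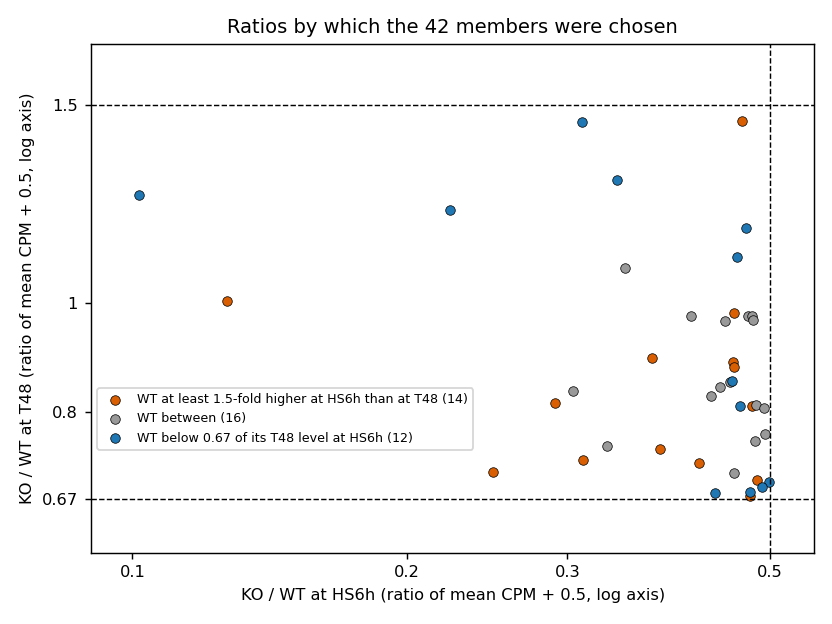
KO over WT ratios of the 42 members at HS6h (x axis) and T48 (y axis), each a ratio of group means of 3 libraries in CPM plus 0.5 on log axes, with dashed lines at the limits of the rule. Colours give the change of WT between HS6h and T48, and the points crowd between 0.4 and 0.5 on the x axis, with g16359 (0.102) and g5649 (0.127) farthest left.

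The sum of gene counts in a library was 4374618 to 7199239 at HS6h, 3043634 to 5091084 at T48 and 4951850 to 8808470 at R24. Levels below are CPM on TMM-adjusted totals of all 72 libraries, unless the text speaks of ratios of the rule or of shares, which use unadjusted totals. Against unadjusted totals, TMM shifts every gene by -0.14 on the log2 scale for KO over WT at HS6h, by 0.06 for KO over WT at T48, by 0.47 for HS6h over T48 in WT and by -0.24 for V4 over V1 at HS6h. CPM are not divided by transcript length, so a level ranks reads and not transcript molecules. RNA came from whole cultures, where fewer cells of a type and less RNA per cell cannot be told apart.

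The members differed widely in level. In WT at HS6h they had from 6.64 to 29107 CPM with a median of 21.0. Above 1000 CPM there were 4 members, between 100 and 1000 there were 2, and 36 were below 100, of which 21 were below 20 CPM. All 42 passed the filters on low counts in every fit below.

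The member with the most reads was g7775. At HS6h it had 10265, 9236 and 10599.6 CPM in KO, against 29367, 29273 and 28681 CPM in WT. At T48 it had 5256, 4763 and 4803 CPM in KO, against 6173, 5965 and 7091 CPM in WT. Heat thus went with more transcript in both genotypes, and the KO libraries lay below WT without overlap in both treatments. The sum over all 42 members at HS6h was 17801 CPM in KO and 48876 CPM in WT, and without g7775 it was 7768 CPM in KO and 19769 CPM in WT. Next in reads came g16203, with 3991, 3726 and 3865 CPM in KO and 8646, 9184 and 9155 CPM in WT at HS6h. At T48 its libraries overlapped, with 4983, 4581 and 4744 CPM in KO and 4787, 4579 and 4759.9 CPM in WT.

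The lowest ratios at HS6h belonged to g16359 and g5649, which reached them from different levels at T48. In g16359 the HS6h libraries held 1.79, 1.82 and 3.36 CPM in KO, against 29.0, 30.2 and 33.1 CPM in WT. Its T48 libraries held 181, 165 and 183 CPM in KO, against 134, 129.9 and 143 CPM in WT. Heat therefore went with a loss of this transcript in both genotypes, and KO lay below WT at HS6h and above it at T48.

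In g5649 the HS6h libraries held 6.15, 8.64 and 3.18 CPM in KO, against 57.8, 54.5 and 57.9 CPM in WT. Its T48 libraries held 15.2, 11.5 and 12.2 CPM in KO, against 8.04, 16.1 and 12.9 CPM in WT, and overlapped. Here WT was higher at HS6h than at T48 and KO was lower.

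In WT some members were higher after heat and others lower. By the ratio of WT at HS6h to WT at T48 on unadjusted totals, 14 members were at least 1.5-fold higher at HS6h, 16 lay between and 12 were below 0.67. The ratio ran from 0.0605 to 3.85 with a median of 1.04, where the median over the 6245 genes was 0.779. In KO it ran from 0.013 to 2.23 with a median of 0.478, against 0.865 over the 6245 genes. In KO 33 of the 42 members were lower at HS6h than at T48, in WT 20 were. These counts follow in part from the rule, which fixes the loss in KO at HS6h, and TMM adds the 0.47 given above to every log2 ratio of HS6h to T48 in WT.

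With TMM-adjusted totals the median log2 difference between HS6h and T48 over the members was -0.76 ± 0.12 in KO and 0.50 ± 0.05 in WT (SD, n = 3 HS6h libraries, each set against the mean of T48). The lines that express a single form lay between these values, at 0.22 ± 0.29 in Dmb, 0.15 ± 0.06 in Dma, 0.12 ± 0.09 in V4, -0.24 ± 0.10 in V5-6, 0.18 ± 0.18 in V1, -0.60 ± 0.14 in V2 and 0.18 ± 0.09 in V3 (SD, n = 3 HS6h libraries). Over the 6245 genes the same median lay between 0.04 and 0.13 in all 9 genotypes. The T48 and HS6h libraries of the lines played no part in the rule, but those of KO and WT did. The rule therefore sets the KO and WT values apart, and nothing is read from the lines lying between them. Among the lines alone, the median difference between HS6h and T48 was lowest in V2.

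All 42 members had lower values in every KO library than in every WT library at HS6h, where 22.4% of the 6245 genes did, and since the rule chose on the means of these libraries nothing is read from that count. At T48 the KO and WT libraries overlapped in 28 members. KO was below WT without overlap in 9 of the 42, where 21.0% of the 6245 genes were, and above WT without overlap in 5, where 22.3% were. The rule used the T48 ratio too, so nothing is read from these counts. The 5 with KO above WT were g5311 and the consecutively numbered g16357, g16358, g16359 and g16360, named here after their values were seen.

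These 4 consecutive IDs shared a profile. In KO at HS6h the means were 21.7 ± 1.76 CPM for g16357, 7.61 ± 3.29 CPM for g16358, 2.33 ± 0.899 CPM for g16359 and 2.00 ± 0.543 CPM for g16360, against 71.5 ± 6.57 CPM for g16357, 39.8 ± 1.81 CPM for g16358, 30.8 ± 2.08 CPM for g16359 and 8.48 ± 0.998 CPM for g16360 in WT (SD, n = 3). In KO at T48 they were 350.1 ± 14.6 CPM for g16357, 217 ± 11.6 CPM for g16358, 176 ± 9.98 CPM for g16359 and 164 ± 10.1 CPM for g16360, against 262 ± 12.5 CPM for g16357, 172 ± 8.25 CPM for g16358, 136 ± 6.64 CPM for g16359 and 109 ± 7.15 CPM for g16360 in WT (SD, n = 3). All 4 were thus lower after heat in both genotypes with KO below WT at HS6h and above WT at T48. For g16360 the KO ratio of HS6h to T48, 0.013, was also the lowest among all 6245 genes of 5 CPM or more. Between g16171 and g16360 the table holds 181 IDs, of which 64 had 5 CPM or more in WT at HS6h and 8 were members. No genome position was read from these numbers. Whether reads were counted in several overlapping genes is not stated, so neighbouring IDs may share reads, and their agreement is not 4 separate observations.

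The place of each line between KO and WT at HS6h was described by a share. It is the part of the log2 distance from KO to WT that the mean of a line covered, where 0 is the KO level and 1 the WT level. The KO and WT libraries of this scale also chose the members, so no test was run. The rule asked for low KO and high WT means there, so shares above 0 follow in part from it. Nothing is therefore read from a line lying above KO. The median share over the members was 1.24 in Dmb, 1.15 in Dma, 0.846 in V4, 0.620 in V5-6, 0.839 in V1, 0.484 in V2 and 0.993 in V3. Members at a share of 0.5 or more numbered 36 in Dmb, 34 in Dma, 27 in V4, 28 in V5-6, 29 in V1, 20 in V2 and 33 in V3. Members above WT numbered 26 in Dmb, 23 in Dma, 17 in V4, 2 in V5-6, 17 in V1, 6 in V2 and 21 in V3. The same counts over all genes were not made, so nothing is read from these numbers of members. On TMM-adjusted totals the median share of V4 was 0.703, below that of V1 at 0.883, whereas on unadjusted totals the medians of V4 and V1 were nearly equal.

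The spread of the members on this scale is given as a description, on unadjusted totals and without the spread over all genes. Between the lower and upper quartile the members spanned shares from 0.180 to 1.24 in V4 and from 0.338 to 0.798 in V5-6. In V4, 8 members were at or below the KO level and 17 above the WT level, while in V5-6 there were 3 and 2. Whether all genes differ between these lines in the same way was not counted, so nothing is read from this. Only 5 members were at 0.5 or more in all 7 lines, namely g11693, g15561, g16203, g16348 and g16357, named after their values were seen.

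**Figure D2:**
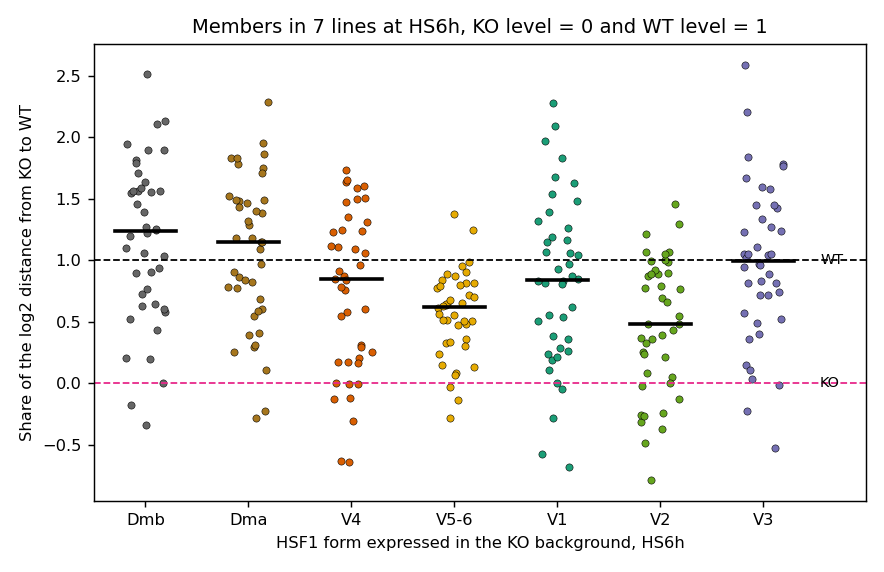
Share of the log2 distance from KO (0, dashed) to WT (1, dashed) at HS6h in 7 lines, 1 point per member (42 per line, group means of 3 libraries, CPM plus 0.5) and a black bar at the median. The V5-6 points are the most closely packed, from 2 members above WT to 3 at or below KO, while V4 has 17 members above WT and 8 at or below KO.

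The only member below a share of 0.5 in every line was g7775, which has the most reads. At HS6h its libraries held 12483, 12811 and 13244 CPM in Dmb, 9168, 8496 and 7283 in Dma, 11108, 10992 and 11660.2 in V4 and 7595, 7372 and 7799.8 in V5-6. They held 5883, 6118 and 5516 CPM in V1, 5120.2, 5318 and 5087 in V2 and 6514, 6635 and 6261 in V3. Every line library lay below every WT library, and every library of V5-6, V1, V2, V3 and Dma lay below the KO range. At T48 the line means were 3744 CPM in Dmb, 3516 in Dma, 1995 in V4, 1175 in V5-6, 1623 in V1, 855 in V2 and 1373 in V3, against 4941 in KO and 6409.6 in WT. In trehalose the means of all 7 lines thus lay below that of KO, whereas after heat every Dmb and V4 library lay above the KO range.

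Whether the isoforms differ on these genes was asked by setting V4 and V5-6 against V1, V2 and V3 at HS6h. These libraries played no part in choosing the members, so edgeR's quasi-likelihood test applies. It was fitted on all 27 HS6h libraries and 8261 genes, with p-values adjusted by Benjamini-Hochberg over all of them and a threshold of 0.05. Adjusted p below are from that test.

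After heat some members were lower in the V4 line than in V1, V2 and V3, and others were higher. Against V1, 20 members were lower in V4 and 13 higher, where 19.3% of all genes tested were lower and 15.4% higher. Against V2, 13 were lower (22.2% of all genes) and 21 higher (20.4%). Against V3, 19 were lower (18.6% of all genes) and 8 higher (16.5%). The median log2 difference over the members was -0.18 against V1, 0.45 against V2 and -0.25 against V3, and over all genes it was -0.01 against V1, 0.02 against V2 and 0.01 against V3. Compared with all 3 lines, 13 of the 42 members were lower in V4 every time, where 9.90% of all genes met that, and 7 were higher every time, where 6.95% of all genes did. These 3 comparisons share the V4 libraries. Of the 13, 6 were among the 14 members that heat raised in WT, 3 among the 16 between and 4 among the 12 that heat lowered. Those 4 were the consecutive g16357, g16358, g16359 and g16360, which may share reads and are not 4 separate observations. Counts below, at T48 and R24 too, hold IDs of this run as well. Of the 7, 4 were among those raised and 3 among those between.

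The largest difference was in g16359. Its HS6h libraries held 2.48, 2.55 and 1.43 CPM in V4, against 54.4, 75.9 and 71.3 in V1, 30.0, 30.1 and 30.6 in V2 and 86.4, 85.5 and 85.3 in V3. The V4 libraries lay in the KO range or below it, and those of V1 and V3 lay above all WT libraries. The difference of V4 from V1 was log2 -4.96, SE 0.20, adjusted p 2.38e-31; from V2 it was log2 -3.77, SE 0.23, adjusted p 8.37e-23; and from V3 it was log2 -5.28, SE 0.20, adjusted p 1.46e-33. The next ID, g16360, had 0.827, 0.51 and 0.477 CPM in V4, against 12.3, 19.8 and 10.4 in V1 (log2 -4.49, SE 0.42, adjusted p 3.64e-14). Its V4 values came from 4, 2 and 2 reads, so the size of this difference is uncertain, and it may share reads with g16359.

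Among members with high counts, V4 lay below V1, V2 and V3 in g2254 and g5018 as well. For g2254 the HS6h libraries held 505, 452 and 459 CPM in V4, against 3659, 3701 and 3901 in V1, 3006, 2767 and 2875 in V2 and 3144, 3259 and 2918 in V3. KO had 774, 735 and 769 CPM and WT 3314, 3595 and 3204 CPM, so V4 lay below KO, V1 lay above WT, and V2 and V3 lay between KO and WT or in the WT range. The difference of V4 from V1 was log2 -3.00, SE 0.07, adjusted p 6.51e-46.

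For g5018 the HS6h libraries held 135, 128 and 133 CPM in V4, against 736, 806 and 827 in V1, 662, 621 and 650.0 in V2 and 783, 854 and 710.3 in V3. KO had 217, 220.1 and 228 CPM and WT 514, 554 and 476 CPM. V4 was again below KO, and V1, V2 and V3 were above WT without overlap. The difference of V4 from V1 was log2 -2.59, SE 0.07, adjusted p 3.61e-40.

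The members that were higher in V4 were mostly of low level. In g12265 the HS6h libraries held 31.9, 37.7 and 39.6 CPM in V4, against 19.3, 15.0 and 16.5 in V1, 9.50, 10.5 and 10.5 in V2 and 21.1, 15.7 and 15.1 in V3. KO had 13.1, 14.6 and 8.97 CPM and WT 25.6, 31.7 and 28.8 CPM. V4 lay above WT without overlap, and V2 was near KO. The difference of V4 from V2 was log2 1.85, SE 0.19, adjusted p 5.85e-13. In g5311 the HS6h libraries held 12.0, 6.62 and 11.0 CPM in V4, against 3.48, 2.92 and 3.14 in V3 (log2 1.65, SE 0.35, adjusted p 8.89e-05).

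**Figure D3:**
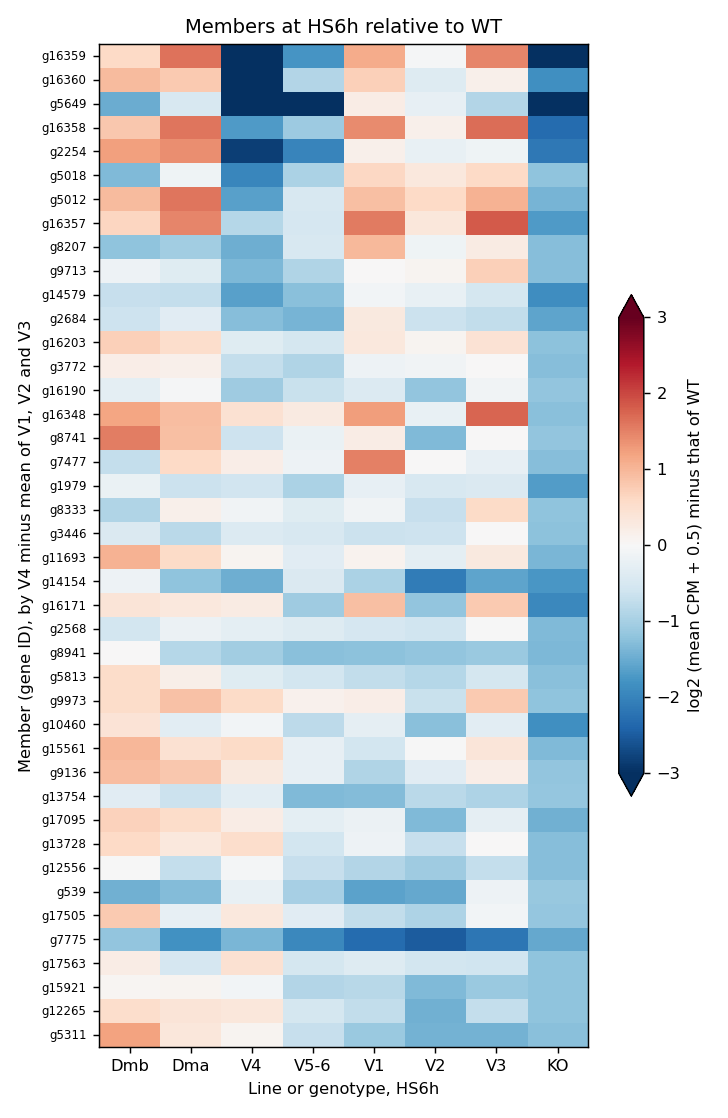
Group means of the 42 members at HS6h in 7 lines and KO, as log2(CPM + 0.5) on TMM-adjusted totals minus that of WT (colour, clipped at -3 and 3), with gene IDs down the page ordered by V4 minus the mean of V1, V2 and V3. V4 and V5-6 are blue in the top 5 rows, where V1 is red or pale, and the row of g7775 near the bottom is blue throughout.

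The V5-6 line was lower than V1 and V3 in many members and higher in few. Against V1, 19 members were lower (13.2% of all genes) and 2 higher (10.3%). Against V2, 12 were lower (13.2% of all genes) and 9 higher (11.0%), and against V3, 19 were lower (14.5%) and 2 higher (12.8%). The median over the members was -0.44 against V1, 0.07 against V2 and -0.61 against V3 on the log2 scale, and over all genes it was -0.01 against V1, 0.00 against V2 and 0.00 against V3. Members lower in V5-6 than in all 3 lines numbered 11, where 4.68% of all genes met that, and 2 members, g14154 and g7775, were higher than in each (2.00% of all genes). Without V1 replicate 1, V1 replicate 3, V5-6 replicate 2 or V5-6 replicate 3 this count of 2 became 1, and without V1 replicate 1 or V5-6 replicate 2 the count higher than V1 became 1. V4 and V5-6 were set against the same V1, V2 and V3 libraries, so their lists are not independent of each other. The 11 lower in V5-6 include g16357, g16358 and g16359, which may share reads.

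The leading members were g5649 and g16359. For g5649 the HS6h libraries held 5.63, 6.66 and 4.51 CPM in V5-6, against 77.9, 69.7 and 51.8 in V1, 52.3, 41.7 and 49.8 in V2 and 28.1, 31.4 and 31.8 in V3. The V5-6 libraries overlapped those of KO, and V4 with 2.48, 4.59 and 10.3 CPM did too. The difference of V5-6 from V1 was log2 -3.58, SE 0.22, adjusted p 5.66e-22, and that of V4 from V1 was log2 -3.56, SE 0.22, adjusted p 7.81e-22. For g16359 the HS6h libraries held 6.93, 8.95 and 10.3 CPM in V5-6, above KO and below WT without overlap (log2 -2.98, SE 0.16, adjusted p 2.34e-25 against V1). In the other direction g14154 held 40.3, 43.7 and 50.4 CPM in V5-6, against 12.8, 14.7 and 14.1 in V2 (log2 1.69, SE 0.20, adjusted p 2.02e-10).

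Between V4 and V5-6 themselves, 10 members were lower in V4 (12.1% of all genes) and 12 higher (9.30%). In g16359 V4 was lower than V5-6 (log2 -1.97, SE 0.27, adjusted p 4.28e-08). In g16171 V4 was higher, with 36.4, 39.2 and 36.7 CPM in V4 against 12.6, 15.2 and 16.6 in V5-6 (log2 1.36, SE 0.16, adjusted p 2.37e-10). The 2 lines were thus not alike over the members, although both were lower than V1 and V3 in about as many of them.

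Genes that heat raised at least 4-fold in WT and that were 2-fold lower in KO, 29 in all, and the 52 that were 2-fold lower in KO in both treatments, are the nearest other sets by the same ratios. Of the 42 members, 20 were lower in V4 than in V1 and 13 higher, beside 28 lower and 1 higher of the 29, and 34 lower and 4 higher of the 52. Lower in V5-6 than in V1 were 19 of the 42, 28 of the 29 and 25 of the 52. The median log2 difference of V4 from V1 was -0.18 over the 42, -6.99 over the 29 and -1.24 over the 52. The difference between these sets was not tested.

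With the Drosophila forms 26 of 42 members in Dmb and 23 of 42 in Dma stood above the WT mean at HS6h. The share over all genes was not counted, so nothing is read from these counts. Against V1, Dma was lower in 8 members (20.1% of all genes) and higher in 16 (14.9%), with a median of 0.30 on the log2 scale over the members and 0.00 over all genes. Without g7775, the sum over the members was 29116 CPM in Dmb, 29710 in Dma, 7768 in KO and 19769 in WT. A few genes of high level weigh most in such a sum, such as g16203 with 14727 CPM in Dmb and 12894 in Dma. In g2254 the HS6h libraries held 9137, 6678 and 7759 CPM in Dmb and 9699.7, 8221 and 8861 in Dma, more than in any WT library. In g8207 Dma was lower than V1, with 5.93, 4.96 and 9.43 CPM in Dma against 31.7, 31.0 and 24.7 in V1 (log2 -2.13, SE 0.25, adjusted p 1.17e-10). In g9136 it was higher, with 16.8, 20.2 and 18.1 CPM in Dma against 3.92, 9.46 and 2.47 in V1 (log2 1.71, SE 0.28, adjusted p 1.34e-06).

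Dmb differed from Dma in both directions, lower in 11 members (12.5% of all genes) and higher in 11 (11.8%). The count of higher members became 7 without Dma replicate 3 and 7 without Dmb replicate 3. In g5018 the HS6h libraries held 218, 182 and 219 CPM in Dmb, within or below the KO range, against 509, 427 and 483 in Dma (log2 -1.18, SE 0.07, adjusted p 7.23e-22). In g17505 they held 64.7, 67.1 and 58.3 CPM in Dmb, against 30.0, 34.7 and 28.3 in Dma (log2 1.06, SE 0.15, adjusted p 2.87e-08).

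In trehalose V4 and V5-6 differed from V1, V2 and V3 in fewer members than after heat in all 6 comparisons. The change in count was not tested. The rule asked for a loss in KO and a level of 5 CPM at HS6h, and for a smaller KO difference at T48. Most T48 libraries also held fewer reads than those of HS6h, so nothing is read from the lower counts. The T48 fit held 27 libraries and 8258 genes. Against V1, V4 was lower in 8 members (19.1% of all genes) and higher in 11 (14.8%). Against V2 it was lower in 15 (20.8%) and higher in 9 (18.6%), and against V3 lower in 11 (11.3%) and higher in 4 (8.88%). V5-6 was lower than V1 in 6 members (18.2%) and higher in 8 (17.6%), lower than V2 in 12 (10.4%) and higher in 4 (10.3%), and lower than V3 in 6 (9.69%) and higher in 3 (10.2%). The count lower than V3 became 3 without V3 replicate 3. Against all 3 lines at once, 6 members were lower in V4 (5.19% of all genes) and 3 were higher (3.12%), which became 1 without V4 replicate 2. In V5-6, 3 were lower than in each (1.71%), which became 1 without V3 replicate 1 or without V3 replicate 3, and none was higher (1.39% of all genes). That count of 0 was the same with DESeq2, and it was 1 at an unadjusted p under 0.05 in edgeR.

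Between V4 and V5-6 at T48, 7 members were lower in V4 (12.2% of all genes) and 6 higher (8.14%), and 7 and 9 on unadjusted totals. Dma was lower than V1 in 8 (15.6%) and higher in 13 (16.8%), and 11 and 10 on unadjusted totals. Dmb was lower than Dma in 1 member, g7477 (8.86%), and higher in 10 (11.5%), and 4 and 10 on unadjusted totals. The count of 1 became 2 without Dma replicate 1. The splits on unadjusted totals were added after the data were seen.

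At T48 g2254 set V5-6 apart, with 355, 366 and 351 CPM in V5-6, against 815, 858 and 866 in V1, 1117, 1098 and 1084 in V2 and 1098, 1094 and 1123 in V3. V4, which was lowest at HS6h, held 858, 866 and 864 CPM at T48, inside the range of V1. The difference of V5-6 from V1 was log2 -1.28, SE 0.06, adjusted p 1.41e-35, and that of V4 from V5-6 was log2 1.25, SE 0.06, adjusted p 2.76e-34. In g5018 V4 was lower than V1 at T48 as well, with 101, 130.4 and 117 CPM in V4 against 185, 186 and 176 in V1 (log2 -0.71, SE 0.08, adjusted p 7.13e-13). In g15921 V4 was higher, with 12.7, 15.5 and 7.05 CPM in V4 against 2.65, 2.91 and 2.91 in V1 (log2 1.99, SE 0.32, adjusted p 2.27e-07). In g16171 the V2 line stood high at T48, and V4 held 7.15, 4.49 and 8.26 CPM against 39.9, 41.6 and 35.2 in V2 (log2 -2.58, SE 0.25, adjusted p 1.15e-15).

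Whether a difference between lines depended on the treatment was tested as an interaction, HS6h minus T48, in the 30 libraries of V1, V2, V3, V4 and V5-6 and 8476 genes. For V4 against V1 it was lower at HS6h in 16 members (16.9% of all genes) and higher in 7 (11.4%). For V4 against V2 it was lower in 7 (16.3%) and higher in 12 (13.8%), and for V4 against V3 lower in 11 (9.44%) and higher in 3 (6.05%). The last split was 11 and 6 on unadjusted totals, and the 3 became 1 without HS6h V3 replicate 2, HS6h V3 replicate 3, HS6h V4 replicate 3 or T48 V3 replicate 1. The V2 line, with the lowest median share, was the only one of the 3 against which more members had a higher than a lower interaction with V4.

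For V5-6 against V1 the interaction was lower in 20 members (16.7% of all genes) and higher in 2 (10.7%), and 14 and 6 on unadjusted totals. The count of 2 became 1 without HS6h V5-6 replicate 1, T48 V1 replicate 1, T48 V1 replicate 3, T48 V5-6 replicate 2 or T48 V5-6 replicate 3. For V5-6 against V2 it was lower in 6 (9.59%) and higher in 9 (5.90%), and 4 and 10 on unadjusted totals. For V5-6 against V3 it was lower in 14 (9.41%) and higher in 3 (6.13%).

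The lowest interaction of V4 against V3 was in g16359. At T48 its libraries held 189, 179.8 and 184 CPM in V4 and 232, 205 and 197 in V3, while at HS6h the means were 2.15 CPM in V4 and 85.7 CPM in V3. The gap between these lines was thus far wider after heat, and the interaction was log2 -5.09, SE 0.20, adjusted p 1.96e-35. In g2254, where V4 and V1 overlapped at T48, the interaction of V4 against V1 was log2 -3.04, SE 0.07, adjusted p 2.78e-51. In g5649 the T48 libraries held 9.65, 11.4 and 15.3 CPM in V5-6 and 10.6, 9.32 and 10.8 in V1, and the interaction of V5-6 against V1 was log2 -3.85, SE 0.33, adjusted p 9.51e-17. In g15561 the interaction of V4 against V1 was positive, with 14.9, 15.5 and 16.9 CPM in V4 and 4.76, 8.80 and 7.41 in V1 at HS6h, and 10.5, 12.6 and 6.56 in V4 and 15.1, 11.7 and 10.6 in V1 at T48 (log2 1.46, SE 0.38, adjusted p 0.00203).

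**Figure D4:**
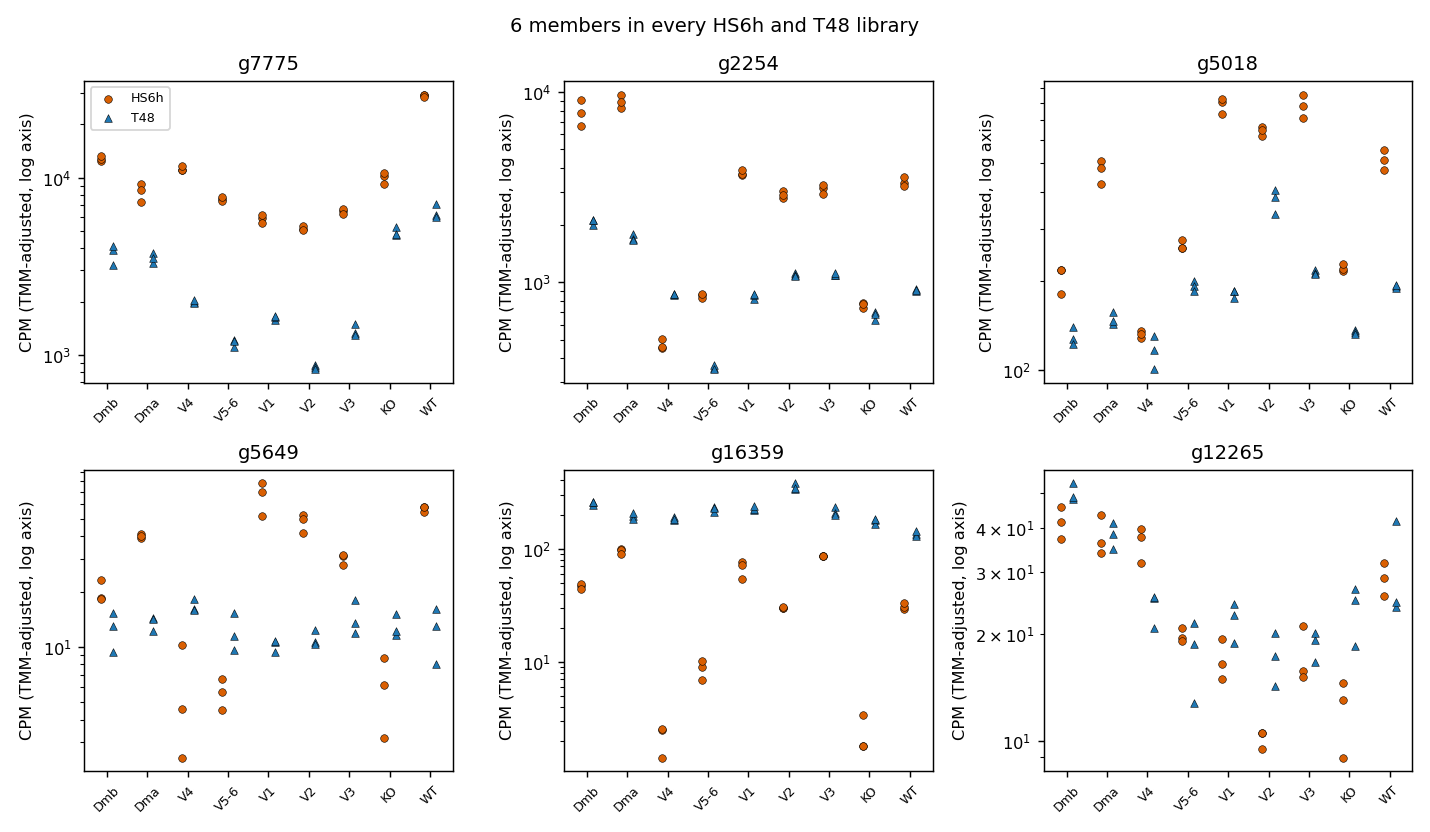
CPM on TMM-adjusted totals (log axis) of 6 members in every HS6h library (circles) and T48 library (triangles) of 7 lines, KO and WT, 3 libraries per group. In g2254, g5018, g5649 and g16359 the V4 circles overlap the KO circles or lie below them, in g12265 they lie above the WT circles, and in g7775 no line reaches WT.

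After rehydration the members could be compared with WT in a test, since no R24 library entered the rule. The R24 fit held 18 libraries and 8929 genes. V4 was lower than WT in 10 members (14.9% of all genes) and higher in 6 (12.4%), and 6 and 10 on unadjusted totals. V5-6 was lower in 13 (8.98%) and higher in 3 (7.69%). V1 was lower in 9 (9.72%) and higher in 6 (11.0%), V2 lower in 13 (15.9%) and higher in 6 (17.4%), and V3 lower in 12 (15.2%) and higher in 6 (15.3%). The median log2 difference over the members was -0.15 in V4, -0.21 in V5-6, -0.03 in V1, -0.06 in V2 and -0.20 in V3. These 5 comparisons share the WT libraries, and without a KO at R24 they do not say what the loss of HSF1 does there.

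In all 5 lines 3 members were lower than WT (1.62% of all genes), namely g7775, g14154 and g16190, and none was higher (1.05% of all genes). That count of 0 was the same with DESeq2 and at an unadjusted p under 0.05 in edgeR. In 11 members no line was called, and since the share over all genes was not counted, nothing is read from that. For g7775 the R24 libraries held 5701, 6786 and 6101 CPM in V4, 3802, 4188 and 4018 in V5-6, 4046, 4343 and 3786 in V1, 4252, 4704 and 4401 in V2 and 3949, 3435 and 3288 in V3, against 20028, 22083 and 20301 in WT. Every library of the lines was below every WT library. The log2 difference was -1.74 in V4 (SE 0.09, adjusted p 2.87e-13) and -2.54 in V3 (SE 0.09, adjusted p 2.81e-16), with the other lines between.

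For g14154 the R24 libraries held 56.8, 81.2 and 64.6 CPM in V4, 59.2, 65.5 and 71.0 in V5-6, 28.0, 36.3 and 35.6 in V1, 16.3, 30.7 and 24.5 in V2 and 29.0, 28.8 and 27.5 in V3, against 111, 149.8 and 129 in WT. Every V4 and V5-6 library was thus above those of V1, V2 and V3 and below those of WT, and V5-6 differed from V1 (log2 0.98, SE 0.16, adjusted p 9.96e-05). For g16190 the log2 difference from WT ran from -1.25 in V2 to -0.63 in V3, with the edgeR test. In the sum over transcripts, in place of 1 transcript per gene, the V4 call of g16190 was lost, at log2 -0.04 and an adjusted p of 0.772. In the other direction g5012 was higher than WT in V5-6, with 15.5, 15.4 and 21.9 CPM in V5-6 against 4.69, 2.00 and 3.66 in WT (log2 2.37, SE 0.27, adjusted p 6.14e-07). In V4 it held 3.96, 2.33 and 2.77 CPM, near WT.

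**Figure D5:**
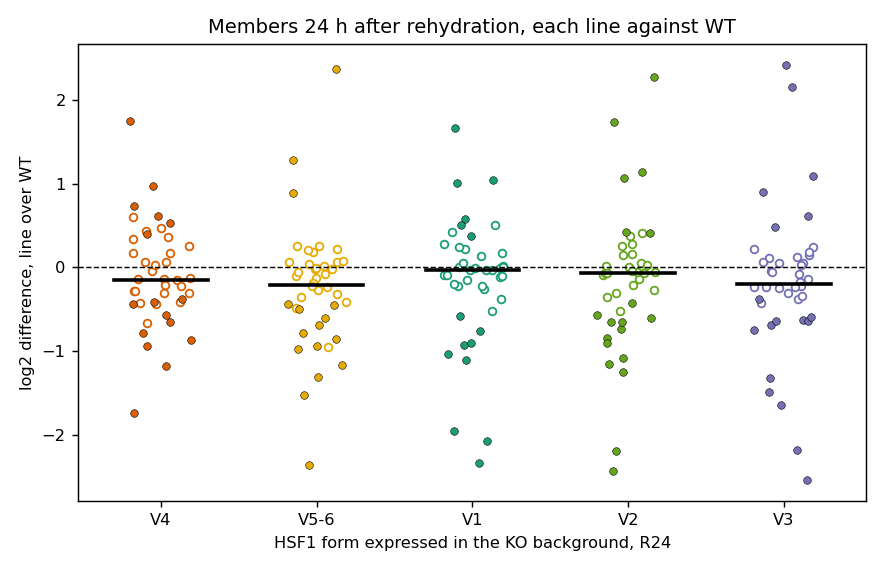
log2 difference of each of 5 lines from WT at R24 (y axis), 1 point per member (42 per line, 3 libraries per group), filled where the edgeR adjusted p was under 0.05, with a black bar at the median. The lowest point in V4, V5-6, V1 and V3 is g7775, and the medians lie between -0.21 and -0.03.

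Among the lines at R24, V4 was lower than V1 in 12 members (18.7% of all genes) and higher in 14 (17.7%), lower than V2 in 12 (24.2%) and higher in 14 (23.7%), and lower than V3 in 10 (22.4%) and higher in 16 (23.1%). The split against V2 was 8 and 20 on unadjusted totals. Against all 3 lines at once, V4 was lower in 9 members (13.2%) and higher in 12 (11.6%). V5-6 was lower than V1 in 12 (9.47%) and higher in 4 (6.98%), lower than V2 in 10 (10.5%) and higher in 4 (8.09%), and lower than V3 in 8 (7.29%) and higher in 5 (6.34%). The split against V2 was 6 and 6 on unadjusted totals. V5-6 was lower than each of the 3 in 8 members (2.77%) and higher in 1, g14154 (1.33%). The count higher than V1 became 2 without V1 replicate 1 or V5-6 replicate 3, and the count higher than V3 became 3 without V3 replicate 1, V5-6 replicate 1 or V5-6 replicate 3. V4 was lower than V5-6 in 7 (16.7%) and higher in 16 (15.2%).

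Of the members described at HS6h, g5018 kept its order at R24, with 156, 158 and 153 CPM in V4 against 406, 422 and 378 in V1 (log2 -1.37, SE 0.08, adjusted p 1.71e-12). In g5311 V4 stood high, with 21.1, 19.6 and 23.5 CPM in V4 against 4.30, 4.65 and 3.35 in V3 (log2 2.39, SE 0.21, adjusted p 2.07e-09). In g16171 V4 was lower than V3, with 7.82, 7.77 and 7.81 CPM in V4 against 53.8, 47.6 and 40.7 in V3 (log2 -2.59, SE 0.19, adjusted p 1.33e-10), and V5-6 was lower too, with 10.4, 11.7 and 9.29 CPM (log2 -2.17, SE 0.19, adjusted p 6.33e-09). The order of V4 and V2 in g16171 thus turned between treatments: at HS6h it held 37.5 CPM in V4 and 13.6 in V2, and at T48 6.64 in V4 and 38.9 in V2.

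Each member was read from its transcript with the most reads, and 6 members have a single annotated transcript. Members had from 1 to 78 transcripts with a median of 3, and the 6245 genes had a median of 4. In 35 members 364 other transcripts had 1 CPM or more in WT at HS6h, and KO over WT was at most 0.5 in 241 of them. All other transcripts did so in 19 members, g16359 with 25 and g9973 with 33 among them. In g16190 none of 65 did, at ratios from 0.543 to 0.582, and in g16358 only 1 of 33 did, at ratios from 0.223 to 0.697. Transcripts of a gene share reads in this table, so they are not independent readings of the gene.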

How the data were processed

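The 72 RNA-seq libraries, 3 per group, were made from poly(A)-selected RNA with NEBNext Ultra II after extraction by an RNA Plus kit, per the labels' protocols. Per the submitters' processing notes, the tools were FastQC 0.11.9, Trimmomatic 0.39, HISAT2 2.2.1 and HTSeq 2.0.9. The authors deposited their counts as whole reads per transcript, with no normalization. The genome build, the annotation and the strand setting are not given in the sources used here, so reads of overlapping genes on either strand cannot be assigned to 1 of them.

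The table has 65235 transcripts of 17156 genes and 5 special rows, which were left out. Reads without a feature came to 38.3% to 46.5% of the gene counts plus these reads. Summed over transcripts, a library had 18.5 to 26.1 times its gene counts, so a gene was read from its transcript with the highest total. Libraries were grouped by their labels, with replicates numbered in accession order.

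Members and lists were chosen with earlier results of these data known. Genes named are the 2 highest in WT at HS6h, the 2 lowest in KO over WT, those at the edges of the rule, and per comparison the 2 called members lowest and the 2 highest in log2 difference. For comparisons of 2 groups, called members were passed over if their libraries overlapped or the higher group mean was below 5 CPM. A gene named once may be given elsewhere.

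Genes were filtered with filterByExpr, scaled by TMM and tested with edgeR 4.0.16 (limma 3.58.1, R 4.3.3) by its quasi-likelihood test, with Benjamini-Hochberg adjustment over all genes of a fit and a threshold of 0.05. One fit was made for each treatment and 1 for the interaction, with no covariate, since the labels give no batch. The SE printed with a log2 difference is its absolute value divided by the square root of the F statistic of the test. It was derived from the test and not estimated on its own, so it is a rough guide where reads are few. The scripts were checked on simulated data. P-values measure the spread between libraries, which may be technical, because the labels do not say whether they come from separate cultures. Alternatives were DESeq2 1.42.0, its size factors, no filter, only the groups compared, the sum over transcripts, leaving out each library and, added after the data were seen, unadjusted library totals.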

Additional observations from a re-analysis of the deposited data

Results flagged for a closer look

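The differences of V4 and V5-6 from V1, V2 and V3 changed between HS6h and T48 in a number of members by edgeR's interaction test. For V4 the number of the 42 called in either direction was 23 against V1 (16.9% of all genes lower and 11.4% higher), 19 against V2 (16.3% and 13.8%) and 14 against V3 (9.44% and 6.05%). For V5-6 it was 22 against V1 (16.7% and 10.7%), 15 against V2 (9.59% and 5.90%) and 17 against V3 (9.41% and 6.13%). The comparisons share libraries, so these are not separate findings.

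The members with the lowest and highest interaction among those called were as follows, on the log2 scale. For V4 against V1, g16360 had -4.67, with only 4, 2 and 2 reads in V4 at HS6h, and g15561 had 1.46. For V4 against V2, g5649 had -3.65 and g16171 had 4.04. For V4 against V3, g16359 had -5.09 and g12556 had 0.87. For V5-6 against V1, g5649 had -3.85 and g7775 had 0.80. For V5-6 against V2, g5649 had -3.22 and g17095 had 2.06, and for V5-6 against V3, g16359 had -3.41 and g14154 had 0.80. The call of g12556 was lost in 7 of the refits that left out a library. Groups of 3 libraries are too small to look for a library far from the others.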

How the results depend on the processing

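In all 36 comparisons the number of members called stayed within 1.5 times the reported one under every alternative, 252 refits without a library included. No named member reversed, but they were picked among called members for large differences, so little is read from that. Named members lost their call in 1 case with DESeq2 (g14154, V5-6 against V1 at HS6h), in 1 without the filter, in 5 with the sum over transcripts and in 36 without a library. Membership itself moved most, to 73 on TMM-adjusted totals and to 3 on the column sums of all transcript rows. On those larger sums the limit of 5 CPM stood for more reads, so the count of 3 also reflects a higher limit on level. Members higher in V5-6 than in all 3 lines at HS6h numbered 1 with DESeq2, 1 with the sum over transcripts and 1 to 2 without a library, and at T48 1 in place of 0 with only the groups compared. Without a library at T48, 1 to 3 were higher in V4 and 1 to 3 lower in V5-6 than all 3 lines. The median share of V4 was 0.703 on TMM-adjusted totals. With those totals it was 0.542 in V2, 0.561 in V5-6 and 1.18 in Dmb, and with the sum over transcripts 0.722 in V1, 0.392 in V2, 0.861 in V3, 0.494 in V5-6 and 1.18 in Dmb. Without a library it was 0.457 to 0.531 in V2, 0.531 to 0.654 in V5-6 and 1.07 to 1.20 in Dma. Causes of these moves were not tested. No paired analysis was possible because the labels give each library a running number of its own and no replicate number shared between groups. At a few CPM, where many members lie, the spread between libraries limits which differences can be called.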
